A study of Mus musculus with 18 samples.

Results

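Chemokines and the regulator of G protein signaling Rgs1 were read out of single-cell RNA-seq of the mouse heart after birth. The 10 genes Ccl3, Ccl4, Ccl2, Ccl7, Ccl6, Cxcl1, Cxcl2, Cxcl10, Cxcl12 and Rgs1, of 35808 genes counted, were selected on their own measured pattern, that is, on which wells carried their unique molecular identifiers (UMIs, 1 per captured RNA molecule) at each stage and on each chip. Levels by stage, chip and cell class are therefore given as a description with no test, and tests are confined to the hairpin comparison at the end. The hearts came from Myh6/Esr1-Tomato mice, in which a tamoxifen-dependent Cre driven by the cardiomyocyte (CM) promoter of Myh6 switches on tdTomato, and the labels give all groups, hairpin hearts included, these alleles. Per the study's methods, dams of the lineage tracing mice were given tamoxifen after birth; whether those of the hairpin hearts were is not given in the sources used here.

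Each of the 18 samples is 1 ICELL8 chip, a plate of nanowells in which wells with a cell are chosen by imaging. Hearts without a hairpin were sampled at postnatal day 4 (P4, 2 chips), P7 (2 chips), P14 (2 chips) and P28 (6 chips). A further 6 chips at P28 held cells from hearts injected at P1 with lentivirus carrying a hairpin against Jun (shJun) or a non-targeting hairpin (shNT), with 2 animals of each named in the well reports. The virus was placed in the left anterior ventricle, so other parts of these hearts and cells that took up no virus were sampled with it. P4 and P7 ventricles were dissociated with a digestion kit and P14 and P28 hearts by perfusion, so age and digestion cannot be told apart between P7 and P14. The chips of P4, and likewise those of P7, held cells of the same animals, and replicate spread there is between chips and not between hearts.

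Chemokines are small secreted proteins that direct the movement of white blood cells by binding G protein-coupled receptors on their surface. In the heart, resident macrophages and fibroblasts are known sources of the ligands that recruit monocytes and neutrophils, while Cxcl12 is made by endothelial and mural cells and retains progenitors and lymphocytes through its receptor Cxcr4. Many inflammatory chemokine genes are switched on within minutes to hours by NF-kappaB and AP-1 (the factor family of Jun and Fos), and Cxcl10 also by interferon. Rgs1 shortens chemokine receptor signaling by speeding GTP hydrolysis on the G protein.

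The CC chemokine members lie together on chromosome 11 (GRCm38), with Ccl2 at 82035571 to 82037453 and Ccl7 at 82045712 to 82047525, both on the plus strand, Ccl6 at 83587882 to 83593087 and Ccl3 at 83647844 to 83649355 on the minus strand and Ccl4 at 83662584 to 83664683 on the plus strand. Cxcl1 (90891241 to 90893115) and Cxcl2 (90903871 to 90905938) lie on the plus strand of chromosome 5, and Cxcl10 (92346638 to 92348889) on its minus strand. Cxcl12 is on chromosome 6 (117168535 to 117181367, plus strand) and Rgs1 on chromosome 1 (144242296 to 144249242, minus strand). All 10 are protein-coding.

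Promoter windows from RefSeq (GRCm38.p6) were matched for 6 members, and 3 of these windows, from 250 bases before to 50 after the start, held a binding motif of NF-kappaB (the kappaB consensus, searched by name on both strands), which 4.51% of 32851 promoters of the same length held. Those of Cxcl1, Cxcl2 and Cxcl10 are shown because the 3 genes share it, with the 220 bases before the start 5′ to 3′ and all motif matches in capitals.
Cxcl1 (chr5:90891025-90891244, plus strand): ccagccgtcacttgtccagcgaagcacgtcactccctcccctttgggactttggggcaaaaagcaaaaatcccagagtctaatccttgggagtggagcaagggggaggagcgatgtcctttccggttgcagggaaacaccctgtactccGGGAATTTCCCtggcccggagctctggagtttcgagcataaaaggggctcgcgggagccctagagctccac
Cxcl2 (chr5:90903679-90903898, plus strand): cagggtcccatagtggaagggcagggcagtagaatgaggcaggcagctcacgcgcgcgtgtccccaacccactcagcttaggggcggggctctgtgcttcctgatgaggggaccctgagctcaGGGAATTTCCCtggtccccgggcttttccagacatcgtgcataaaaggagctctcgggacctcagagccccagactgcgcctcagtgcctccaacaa
Cxcl10 (chr5:92348890-92349109, minus strand): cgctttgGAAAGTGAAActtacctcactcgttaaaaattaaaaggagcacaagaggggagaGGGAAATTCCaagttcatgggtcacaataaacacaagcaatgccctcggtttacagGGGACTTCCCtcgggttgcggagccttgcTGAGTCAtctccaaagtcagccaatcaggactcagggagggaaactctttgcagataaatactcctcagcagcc
In Cxcl1 the match lay 71 to 61 bases before the start and in Cxcl2 97 to 87 bases before it, as the letters GGGAATTTCC and, overlapping on the other strand, GGAATTTCCC. The Cxcl10 window held GGGAAATTCC and GGGACTTCCC. It also held TGAGTCA, a match to the AP-1 motif TGANTCA (7.81% of promoters), and GAAAGTGAAA, a match on the minus strand to the core of an interferon response element, TTTC, any 2 bases and TTTC (3.44% of promoters). A match describes letters and not a bound site.

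Of 23475 wells with a cell, 19999 passed the filters of at least 500 genes and total UMIs within 2 SD of the mean of their set on the log10 scale (P4 2369, P7 2438, P14 1768, P28 6366, hairpin 7058). Chips held 11161784 to 133264535 UMIs, and median UMIs per passing cell ran from 3816 to 18719.5 in hearts without a hairpin other than P28 replicate 3 (34710) and from 23168 to 41531 on hairpin chips. Cells were clustered without the members and called Macrophage-like, Fibroblast-like, Endothelial-like or CM-like, among others, from marker lists. CM-like cells made up 62.8%, 91.9% and 96.0% of P28 replicates 1, 3 and 5, and 0.136% to 0.291% of P28 replicates 2, 4 and 6. In all, 4683 of 5010 barcodes (93.5%) occurred on more than 1 chip, as chips are printed with the same barcode set; among other wells that shared a barcode with a well of 10 or more Ccl4 UMIs, 2.60% had a Ccl4 UMI, against 4.16% of the rest, and for Ccl6 the shares were 16.3% and 17.7%. The 121 control wells of hearts without a hairpin held no UMI of Ccl3, Ccl4, Cxcl10 or Rgs1.

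Among hearts without a hairpin, the mean share of cells with at least 1 UMI was highest at P28 for each of the 10 members, and it ranged widely between the P28 chips. Ccl3 was seen in 0.726% and 1.74% of cells on the P4 chips, 1.404% and 1.99% on the P7 chips, 0.905% and 0.362% at P14, and in 0.711% (lowest), 5.61% (median) and 13.2% (highest) of cells on the 6 P28 chips. Ccl4 was seen in 1.45% and 1.58% at P4, 1.72% and 1.82% on the P7 chips, 0.740% and 0.362% at P14, and 2.84%, 13.4% and 19.8% at P28. For both genes the lowest P28 chip was replicate 5, which was CM-rich, and for Ccl3 it overlapped the earlier stages.

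**Figure D1:**
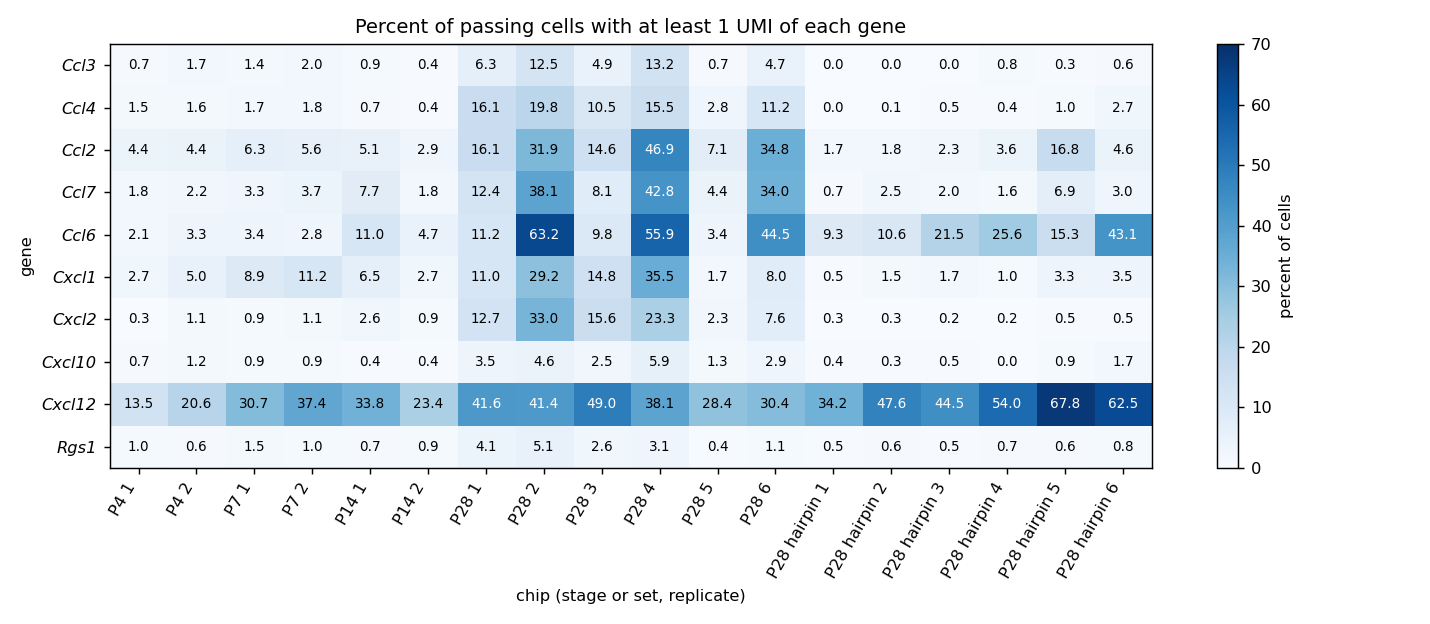
Percent of passing cells with at least 1 UMI of each gene (rows) on each of the 18 chips (columns), with the value printed in each square and darker blue for a larger percent. At P28, Ccl6 was seen in 63.2% of cells on replicate 2 and 3.41% on replicate 5; Cxcl12 was at 13.5% or more on all chips.

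Depth entered these shares. After each cell was thinned to 2000 UMIs, which left out 892 P28 cells and 101, 68 and 7 cells at P4, P7 and P14, the mean share with a Ccl4 UMI was 6.30% ± 2.98 (SD, n = 6 chips) at P28 against 12.7% ± 5.89 unthinned, and 0.976% at P4, 0.923% at P7 and 0.215% at P14. The thinned share of Ccl6 was 18.5% ± 17.0 (SD, n = 6) at P28 and 4.92% ± 2.83 (SD, n = 6) on hairpin chips, against 31.3% ± 26.2 and 20.9% ± 12.5 unthinned. Thinned Cxcl12 stood at 21.4% ± 4.40 at P28 and 18.9% ± 9.59 on hairpin chips (SD, n = 6 each), against 38.2% ± 7.68 and 51.8% ± 12.3 unthinned, so the unthinned order of the last pair was not kept.

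UMIs were also found in cells of classes not known for a gene. On P28 replicate 2, a Ccl6 UMI was found in 79.5% of Macrophage-like cells (95% exact binomial interval 74.2 to 84.1, median 8617 UMIs per cell), but also in 55.0% of T cell-like cells (45.7 to 64.1, median 6572 UMIs) and 61.5% of Endothelial-like cells (54.6 to 68.1, median 9493 UMIs). The source of the UMIs in T cell-like cells was not tested, and no background was subtracted from the levels below. Classes are set side by side by level, given as CPM (UMIs of a gene per 1000000 UMIs without mitochondrial genes). CPM are summed over the cells of a class on a chip with at least 20 such cells. Intervals cover counting error only, and in a sum of cells fewer expressing cells and less RNA per cell cannot be told apart. Averaged over the stages without a hairpin, and among the classes plotted, 8 members were highest in Macrophage-like cells, Cxcl1 in Fibroblast-like cells and Cxcl12 in Endothelial-like cells. This order did not hold at each stage. The Ccl2 mean was higher in Fibroblast-like than Macrophage-like cells at P4 (192.7 against 186.4 CPM) and P14 (670.5 against 417.3). The Cxcl1 mean was higher in Macrophage-like cells at P14 (113.4 against 98.4), and Cxcl10 had no UMI in those of P7. Mural-like cells, not plotted, had a higher Cxcl12 mean than Endothelial-like cells at P4 (163.9 against 153.7).

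**Figure D2:**
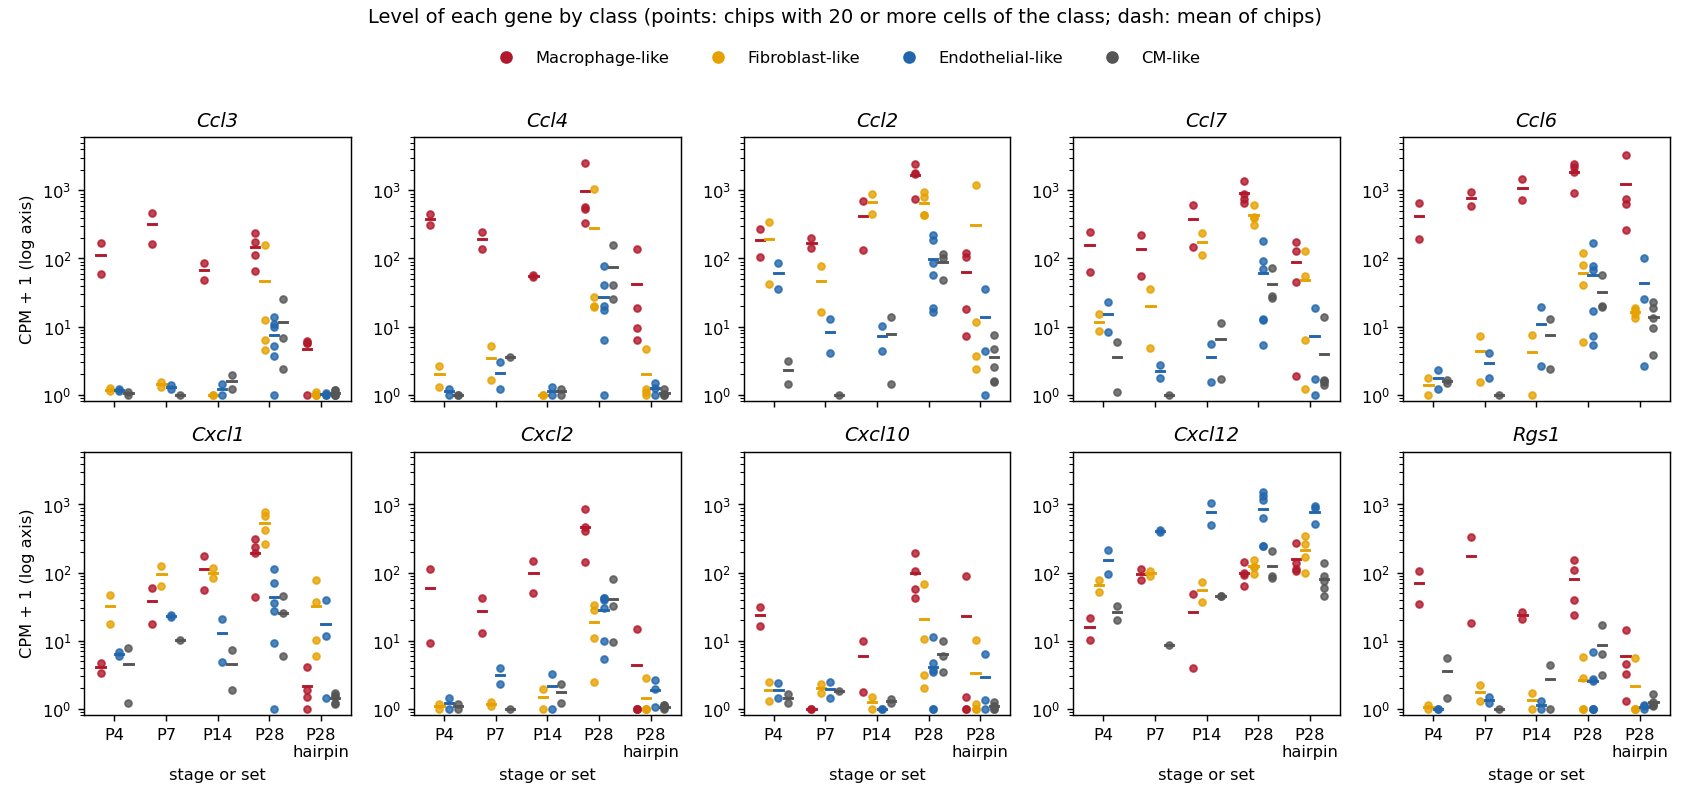
Level of each gene (CPM + 1, log axis) at each stage in Macrophage-like (red), Fibroblast-like (yellow), Endothelial-like (blue) and CM-like (grey) cells; points are chips with at least 20 cells of the class and dashes are means of chips. By mean and among these classes only, Macrophage-like cells lead for Ccl3, Ccl4, Ccl6, Cxcl2 and Rgs1 at each stage without a hairpin, and Endothelial-like cells for Cxcl12.

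Ccl3 and Ccl4 are neighbouring genes whose products draw monocytes and T cells. In Macrophage-like cells, Ccl3 stood at 58.7 and 166.3 CPM on the P4 chips, 470.5 and 162.6 on the P7 chips, 47.9 and 84.2 at P14, and 171.7, 112.3, 232.4 and 63.7 on P28 replicates 1, 2, 4 and 6. The stages overlapped, and the highest value was P7 replicate 1. Ccl4 stood at 310.2 and 452.7 at P4, 247.8 and 139.1 on the P7 chips, 56.9 and 52.6 at P14, and 2508, 332.4, 539.1 and 570.2 at P28. The P14 chips were the lowest for Ccl4, below all others, and P28 replicate 1, from 30 cells, was the highest. On that chip CM markers stood at 18281 CPM in Macrophage-like cells, against 697.1 to 1592 on P28 replicates 2, 4 and 6, and their part in the Ccl4 level was not tested.

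Outside Macrophage-like cells the pair was low before P28. Ccl4 in Fibroblast-like cells was 0.311 to 4.199 CPM on the P4 and P7 chips, with no UMI in the 307 Fibroblast-like cells of P14, which allows a share of up to 0.977% of cells with a UMI. On P28 replicate 1 the 23 Fibroblast-like cells reached 1059 for Ccl4, against 18.2, 19.4 and 26.4 on replicates 2, 4 and 6. A single well of 25074 UMIs held 429 of the 432 Ccl4 UMIs behind that value, together with 115 UMIs of macrophage markers. Of all P28 Ccl4 UMIs, 59.4% were in Macrophage-like cells (12.9% of cells), 14.9% in CM-like (29.8% of cells) and 4.50% in Granulocyte-like cells (1.43% of cells). Granulocyte-like cells stood at 221.8 CPM for Ccl4 and 145.1 for Ccl3 on replicate 4 (24 cells), below the Macrophage-like cells of that chip. On replicate 6 (43 cells) they stood at 1312 and 233.3, above the Macrophage-like cells there.

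Ccl6, a ligand of Ccr1 made by myeloid cells, had the largest part of its UMIs in Macrophage-like cells at each stage. The share ran from 95.7% (P4) and 95.4% (P7) through 90.7% (P14) to 73.8% (P28), and was 80.3% on hairpin chips. Its level in Macrophage-like cells was 189.3 and 644.7 CPM at P4, 953.5 and 591.4 on the P7 chips, 1467 and 724.7 at P14, and 921.8, 1856, 2441 and 2212 on P28 replicates 1, 2, 4 and 6. The P28 chips lay above both P4 chips but overlapped P7 and P14. Granulocyte-like cells, a class led by S100a8 and Retnlg and seen at P28 only, stood at 1774 (24 cells, replicate 4) and 7584 (43 cells, replicate 6), and held 12.2% of P28 Ccl6 UMIs with 1.43% of the cells.

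Ccl2 and Ccl7 encode ligands of Ccr2, the receptor that brings monocytes into tissue. In Macrophage-like cells Ccl2 was 268.3 and 104.4 CPM at P4, 196.7 and 139.7 on the P7 chips, 700.7 and 133.8 at P14, and 2473, 749.1, 1726 and 1832 at P28. In Fibroblast-like cells it was 344.2 and 41.2 at P4, 76.2 and 15.6 on the P7 chips, 443.1 and 898.0 at P14, and 439.0, 430.2, 793.1 and 954.6 at P28. All P28 Macrophage-like values were above those of the earlier stages, whereas in Fibroblast-like cells P28 and P14 overlapped. Single cells weighed on the earlier Fibroblast-like levels, with 1 on P14 replicate 1 holding 1538 of 2468 UMIs of that stage. On P4 replicate 1, 1 cell held 2218 of 3027. The mean share of Fibroblast-like cells with Ccl2 was 9.25% at P14 and 39.4% at P28.

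The order of the P28 means was Macrophage-like (1695 ± 712, n = 4 chips), Fibroblast-like (654.2 ± 262.0, n = 4), Endothelial-like (97.1 ± 87.3, n = 6) and CM-like (88.1 ± 36.8, n = 3; all SD). Macrophage-like and Fibroblast-like values overlapped between chips, but within each of the 4 chips Macrophage-like cells were higher. Endothelial-like and CM-like values overlapped too, and their means cover different sets of chips. Ccl7 followed the same order at P28, with 915.6 ± 318.4 in Macrophage-like, 428.3 ± 125.0 in Fibroblast-like, 60.8 ± 67.2 in Endothelial-like and 41.0 ± 25.6 in CM-like cells. For Ccl7 the 4 Macrophage-like chips, at 658.0 to 1369, lay above the 4 Fibroblast-like chips, at 310.7 to 604.3. At P14 the Macrophage-like values of Ccl7 were 616.1 and 147.4 and the Fibroblast-like values 235.9 and 111.5. These overlapped between chips, with Macrophage-like cells higher within each chip. Of the 1051 Ccl7 UMIs in P14 Fibroblast-like cells, 897 were in 1 cell of replicate 1.

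Cxcl1 and Cxcl2 encode ligands of Cxcr2 that recruit neutrophils, and they differed in class. Cxcl1 in Fibroblast-like cells was 16.4 and 46.4 CPM at P4, 124.3 and 63.1 on the P7 chips, 115.9 and 80.9 at P14, and 426.7, 678.8, 762.1 and 258.3 on P28 replicates 1, 2, 4 and 6. Each P28 chip lay above each earlier chip, and Fibroblast-like cells held 64.3% to 79.3% of Cxcl1 UMIs at the 4 stages. Cxcl1 in P28 Macrophage-like cells was 308.3, 193.0, 236.0 and 42.5, which overlapped the Fibroblast-like range between chips. Within each chip Fibroblast-like cells were higher.

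Cxcl2 in Macrophage-like cells was 8.38 and 110.1 CPM at P4, 40.6 and 12.04 on the P7 chips, 146.0 and 49.6 at P14, and 858.3, 406.0, 464.8 and 143.3 at P28. The lowest P28 chip, replicate 6, was just below the higher P14 chip. P28 Granulocyte-like cells stood at 750.3 (replicate 4) and 311.1 (replicate 6), on each chip above the Macrophage-like cells. On replicate 2, 19 such cells, too few for the limit of 20, stood at 2115. The class held 11.2% of P28 Cxcl2 UMIs with 1.43% of the cells. P28 Fibroblast-like cells stood at 1.496 to 32.8. Fibroblast-like cells held 3.69% of Cxcl2 UMIs at P28, against 64.6% of those of Cxcl1.

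Cxcl10 is an interferon-induced ligand of Cxcr3 on T cells. It was seen in 0.387% to 0.9549% of cells on average at the 3 earlier stages and in 3.44% ± 1.63 (SD, n = 6 chips) at P28. In Macrophage-like cells it was 15.6 and 30.6 CPM at P4, 0.749 and 9.02 at P14, and 190.7, 40.7, 56.5 and 103.0 at P28. No Cxcl10 UMI was found in 148 Macrophage-like cells of P7, which allows a share of up to 2.03% of cells with a UMI, so an absence there was not shown at this depth.

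Cxcl12 set itself apart by class and by spread over cells. In Endothelial-like cells it was 95.3 and 212.0 CPM at P4, 414.5 and 388.3 on the P7 chips, 502.5 and 1055 at P14, and 245.0 (lowest), 895.9 (median) and 1520 (highest) on the 6 P28 chips. The P4 chips were the lowest, with all P7, P14 and P28 chips above them. The lowest P28 values, 245.0 and 248.6, came from CM-rich replicates 3 and 5, whose 46 and 22 Endothelial-like cells carried 53302 and 37215 CPM of CM markers, against 1071 to 2111 on CM-poor replicates 2, 4 and 6. The part of that RNA in the lower values was not tested.

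Mural-like cells, named from Rgs5 and Pdgfrb among other markers, held Cxcl12 at 132.8 to 188.1 CPM on the P4 and P7 chips and 350.3 on P14 replicate 1. Endothelial-like cells held 48.2% (P4), 64.1% (P7), 79.9% (P14) and 61.5% (P28) of all Cxcl12 UMIs, and 48.5% on hairpin chips. At P28 the mean level of Macrophage-like (97.4 ± 31.7, n = 4), Fibroblast-like (122.0 ± 23.9, n = 4) and CM-like cells (124.5 ± 68.2, n = 3; all SD) differed by less than its spread.

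Rgs1 was in 0.815% of cells on average at P4, 1.26% on the P7 chips, 0.782% at P14 and 2.74% ± 1.78 (SD, n = 6 chips) at P28. In Macrophage-like cells its level was 104.2 and 33.1 CPM at P4, 326.9 and 16.9 on the P7 chips, 25.5 and 19.5 at P14, and 149.4, 107.2, 38.3 and 22.8 at P28. Chips of the same stage differed as much as stages did. P28 T cell-like cells reached 94.4 on replicate 2 (120 cells) and 2.65 on replicate 6 (48 cells), and the well with the most Rgs1 UMIs at P28, 71 of 1279, was T cell-like.

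Single cells held a large part of the UMIs of some members. Before P28 a single cell held 52.7% of all Ccl3 UMIs at P7 (507 of 962), 53.9% of Ccl4 UMIs at P14 (62 of 115), 51.4% of Ccl2 UMIs at P4 (2218 of 4312) and 67.8% of Rgs1 UMIs at P7 (362 of 534). The Rgs1 cell and the Ccl3 cell were both Macrophage-like and on P7 replicate 1, the chip with the highest level of each gene. At P28 the highest cell of a member held at most 6.46% of its UMIs, and the cells needed to reach a share of 50% numbered 18 (Rgs1) to 122 (Cxcl12) of 6366.

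**Figure D3:**
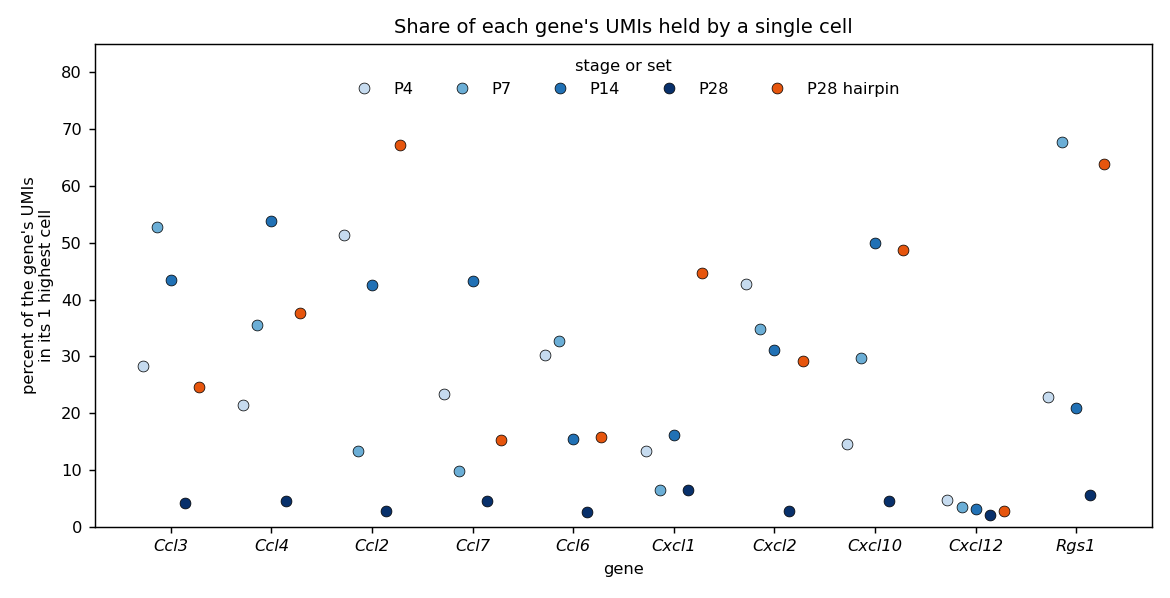
Percent of each gene's UMIs held by its highest cell (y axis) at P4, P7, P14 and P28 (light to dark blue) and on hairpin chips (orange). P28 points lie at 2.11% to 6.46%, Cxcl12 points at 2.11% to 4.72%, and the hairpin point of Ccl2 at 67.1%.

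Members were also counted per cell. Such counts rise with the share of cells that carry each member, so they do not by themselves show that members occurred together. A P28 Macrophage-like cell carried a median of 3 members, against 1 at each earlier stage, and 31.8% of 824 such cells carried at least 5 of the 10, against 2.54% to 5.26% at P4, P7 and P14. Other classes were also higher at P28, where 11.497% of Fibroblast-like, 5.59% of Endothelial-like and 2.53% of CM-like cells carried at least 5, against 0% of each at the earlier stages. Median UMIs per Macrophage-like cell were 9285.5 at P28 and 11195 to 12904.5 at the earlier stages. UMIs in classes not known for a gene also enter such counts. On P28 replicate 2, Ccl6, Ccl2, Ccl7 and Cxcl2 were seen in 55.0%, 31.7%, 30.8% and 30.8% of T cell-like cells. The part of depth and of such UMIs in the counts per cell was not tested. Within P28 Macrophage-like cells, Ccl4 was seen in 48.2% of the 199 cells with Ccl3 and 22.2% of the 625 without, and Ccl7 in 57.7% of the 499 cells with Ccl2 and 36.6% of the 325 without. Cells with the first gene were deeper, at median 13220 against 8390 UMIs for Ccl3 and 11238 against 6789 for Ccl2, and the part of depth in these shares was not tested.

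In P28 Fibroblast-like cells, Ccl2 was seen in 53.9% of the 334 cells with Cxcl1 and in 32.6% of the 414 without (median 12648 and 9063.5 UMIs). Rgs1 was seen in 13.6% of 235 P28 Macrophage-like cells with Ccl4 and 8.83% of 589 without (median 10410 and 8877 UMIs). At P7 it was in 29.6% of 27 such cells with Ccl4 and 5.79% of 121 without (median 17333 and 10499 UMIs).

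On the CM-rich P28 chips, Ccl4 and Rgs1 were also counted in CM-like cells. Ccl4 was found in 16.9% (116 of 687; exact binomial interval 14.2 to 19.9), 10.3% (54 of 523; 7.85 to 13.3) and 2.96% (20 of 675; 1.82 to 4.54) of CM-like cells on replicates 1, 3 and 5. Rgs1 was found in 3.35% (23 cells), 2.87% (15 cells) and 0.444% (3 cells). The corresponding levels were 157.2, 24.4 and 39.4 CPM for Ccl4 and 15.8, 5.29 and 2.14 for Rgs1. In CM-like cells of P4, P7 and P14 Ccl4 was at 0 to 2.52 and Rgs1 at 0 to 4.64 CPM on chips with at least 20 such cells. The 323 CM-like cells of P4 lay in a cluster led by Sln and Myl7, genes of atrial muscle, and whether chamber differed along with age was not tested.

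A CM-like cluster of 96 cells, 45, 29 and 21 of them on replicates 1, 3 and 5, held most of these Ccl4 UMIs. The clustering did not use the members, yet cluster 12 had Ccl4, Cxcl2, Atf3 and Plek as its leading genes, and it carried 83.7%, 57.8% and 77.7% of the Ccl4 UMIs and 87.6%, 23.5% and 100.0% of the Rgs1 UMIs of CM-like cells on the 3 chips. All 8 macrophage markers had UMIs in it on each chip, and 7, 7 and 6 of the 8 were seen in at least 20% of its cells. Their summed level there was 5434, 2128 and 3382 CPM, against 5944 in the 30 Macrophage-like cells of replicate 1. Lyz2, a lysozyme gene of myeloid cells, was in 97.8%, 100.0% and 85.7% of its cells, against 28.3%, 38.5% and 6.27% of the other CM-like cells. CM markers stood at 31600, 57153 and 45795 CPM in the same cluster. Whether its wells held 1 cell or more was not tested.

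Without cluster 12, Ccl4 in CM-like cells was 27.9, 10.9 and 9.04 CPM (in 15.1%, 7.89% and 1.83% of cells) and Rgs1 was 2.13, 4.29 and 0, with 0 of 654 cells on replicate 5, which allows a share of up to 0.459%. Macrophage markers were then counted by well over all CM-like cells, cluster 12 included. The share of cells with at least 3 macrophage marker UMIs was highest at 10 or more Ccl4 UMIs on each chip. On replicate 1 it was alike at 1 to 9 Ccl4 UMIs (19.0%) and at none (19.1%). On replicate 1, 15 of 16 CM-like cells with 10 or more Ccl4 UMIs had at least 3 macrophage marker UMIs, against 19 of 100 with 1 to 9 Ccl4 UMIs and 109 of 571 with none. On replicate 3 these counts were 13 of 14, 18 of 40 and 180 of 469, and on replicate 5 they were 2 of 3, 10 of 17 and 42 of 655. The summed level of the macrophage markers was 605.8 CPM in cells with 1 to 9 Ccl4 UMIs and 453.1 in cells with none on replicate 1, 584.7 and 155.8 on replicate 3, and 2469 and 151.0 on replicate 5. This summed level was thus higher in the cells with 1 to 9 Ccl4 UMIs on each of the 3 chips. Of those cells 6, 8 and 7 were in cluster 12, as were 26, 14 and 13 of the cells with none.

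**Figure D4:**
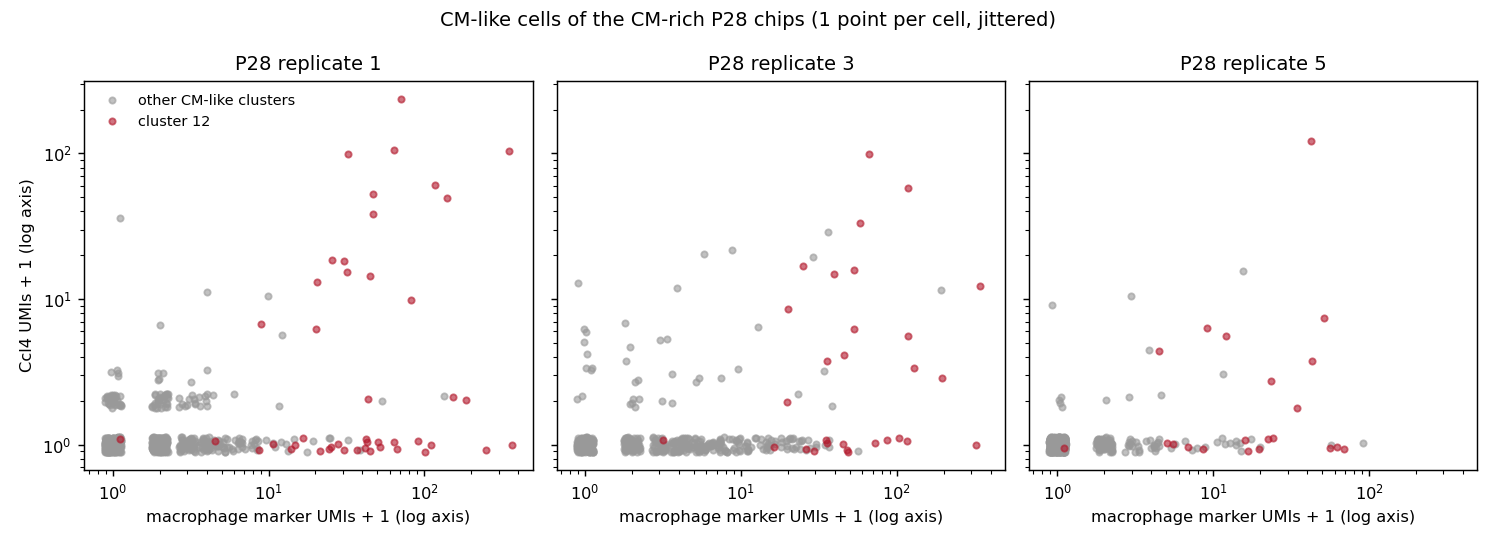
Ccl4 UMIs + 1 (y axis) against summed UMIs + 1 of the 8 macrophage markers (x axis), both on log axes, in each CM-like cell of P28 replicates 1, 3 and 5 (jittered points; cluster 12 in red, others in grey). Of the cells with 10 or more Ccl4 UMIs, 13 of 16, 7 of 14 and 1 of 3 are in cluster 12, and the highest reach 252, 92 and 132 Ccl4 UMIs.

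The highest Ccl4 well among CM-like cells of replicate 1 had 252 Ccl4 UMIs, 70 macrophage marker UMIs and 682 CM marker UMIs in 20519 UMIs. The highest on replicate 5 had 132 Ccl4, 44 macrophage marker and 1499 CM marker UMIs. For Rgs1 the highest CM-like well was on replicate 3, outside cluster 12, with 56 Rgs1, 28 Ccl4, 37 macrophage marker and 2688 CM marker UMIs in 49596 UMIs. Each of these wells thus held both marker sets.

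The other members were unevenly spread over CM-like cells too. Cluster 12 held 82.3%, 58.1% and 72.7% of the Cxcl2 UMIs of CM-like cells and 67.8%, 49.7% and 16.5% of those of Ccl2, but 10.4%, 3.99% and 0.192% of those of Cxcl12. Another CM-like cluster, 11 (36, 24 and 33 cells on the chips), held fibroblast markers at 11573, 2664 and 4636 CPM with 7, 7 and 6 of 8 seen in at least 20% of its cells, and there Cxcl1 was at 337.8, 131.8 and 50.3 CPM and Ccl2 at 313.2, 100.9 and 640.7 CPM. Cxcl12 lay mostly outside both clusters.

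At P14, wells typed CM and non-CM in the reports were on the same chips, which allows both fractions to be read within a chip. On replicate 1, Ccl4 was in 4 of 638 CM-typed and 5 of 578 non-CM-typed wells and Rgs1 in 5 and 3. On replicate 2, Ccl4 was in 2 of 433 CM-typed wells and in 0 of 119 non-CM-typed wells, which allows up to 2.52%, and Rgs1 in 3 and 2. Ccl6 was in 2.08% of CM-typed (exact binomial interval 0.9547 to 3.91) and 14.3% of non-CM-typed wells (8.55 to 21.9) of replicate 2, where 2.77% and 30.3% of wells were Macrophage-like, and in 10.7% (8.37 to 13.3) and 11.4% (8.94 to 14.3) on replicate 1, where 4.39% and 6.57% were. The intervals of the typed fractions were apart on replicate 2 and overlapped on replicate 1.

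Over 76 sums of a class on a chip, which share chips and depth, the profile most like that of Ccl3 was Ccl4 (Pearson r = 0.90 of log2 levels), and that most like Ccl2 was Ccl7 (r = 0.90). Ccl6 was closest to the myeloid genes Alox5ap (0.96), Fcgr3 (0.95) and Tyrobp (0.95). Cxcl2 was closest to the cytokine genes Tnf (0.87) and Il1b (0.84), Cxcl1 to Manf (0.77) and Egr1 (0.76), Cxcl10 to Gm8909 (0.72), Cxcl12 to Adgrl4 (0.84), Tm4sf1 (0.84) and Cd300lg (0.83), and Rgs1 to Cd72 (0.80). The best match was weakest for Cxcl10 and next weakest for Cxcl1.

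Receptors and companion genes were read from fixed lists, with levels pooled over all cells of a class and stage unless chips are named. All 22 chemokine receptor genes had UMIs, 15 reached 10 CPM in some class and stage and 6 reached 100, with Cx3cr1, Ccr7, Ccr1, Cxcr2 and Ccr9 the highest. Cx3cr1, a receptor of resident macrophages, stood at 443.2 and 507.7 on the P7 chips and at 110.8 and 846.5 on the P14 chips in Macrophage-like cells. Ccr1 and Cxcr2 were both at 215.4 in P28 Granulocyte-like cells. Of 28 other chemokine genes, 18 reached 10 and 9 reached 100, led by Pf4 (5087), Ccl5 (4599, T cell-like), Ccl12 (1092), Cxcl16 (460.0) and Ccl9 (371.5), all at P28 and, apart from Ccl5, in Macrophage-like cells. By chip, Pf4 in Macrophage-like cells was 3067 to 6005 at P28 and 2623 and 6572 at P14, so these stages overlapped.

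Among 18 NF-kappaB and immediate early genes 15 reached 100, the 5 highest (Nfkbia, Il1b, Dusp1, Junb and Nfkbiz) in P28 Granulocyte-like cells, the first at 2850 CPM. Of 10 interferon-induced genes 3 reached 100, with Rsad2 at 331.3 in hairpin Endothelial-like cells. Of 19 other RGS genes 13 reached 10 and 6 reached 100, and Rgs5, one of the markers used to name Mural-like cells, led at 3949 in those of hairpin chips, followed by Rgs2 (547.8, P28 Granulocyte-like cells), Rgs10, Rgs4 and Rgs18. Of the 13 that reached 10, only Rgs10 was highest in Macrophage-like cells, as Rgs1 was, at 203.4 to 499.4 on the P28 chips and 365.3 and 459.0 on those of P4.

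On hairpin chips most members were low where P28 hearts without a hairpin were high. In Macrophage-like cells the means over chips with and without hairpin virus were 3.66 ± 2.45 and 145.0 ± 73.1 CPM for Ccl3, 61.3 ± 57.6 and 1695 ± 712 for Ccl2, 3.43 ± 6.85 and 468.1 ± 295.3 for Cxcl2 and 4.89 ± 5.87 and 79.4 ± 59.3 for Rgs1 (SD, n = 4 chips each). Ccl6 stood at 1231 ± 1385 and 1858 ± 669, and Cxcl12 in Endothelial-like cells at 786.0 ± 234.1 (n = 3) and 856.3 ± 558.4 (n = 6). No chip held both sets, so virus, chip, animals and handling cannot be told apart and the sets were not tested against each other. CM markers stood at 110988 and 93581 CPM in Macrophage-like cells of hairpin replicates 3 and 4 and at 13277 and 3222 on replicates 5 and 6, and macrophage markers at 2855, 3264, 8360 and 15781, beside 697.1 to 18281 and 5944 to 18616 at P28 without a hairpin, and their part in the lower levels was not tested.

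The question of the hairpin arm was what changed when Jun was silenced, and since Jun is part of AP-1 the members were read from it too. Jun itself in CM-like cells was 25.5 and 31.7 CPM in shJun animals 1 and 2 and 53.7 and 61.5 in shNT animals 1 and 2. The groups did not overlap, the log2 change was -1.07 ± 0.24 (SE), and the adjusted p of edgeR's quasi-likelihood test was 0.9999. In the other classes Jun overlapped between groups, for example 178.5 and 97.3 in shJun against 70.9 and 282.5 in shNT Macrophage-like cells.

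No gene passed the test in any class. UMIs were summed per animal over 91 to 161 Macrophage-like, 94 to 191 Fibroblast-like, 90 to 360 Endothelial-like and 708 to 1078 CM-like cells, and edgeR called 0 of 12831, 13812, 14159 and 17805 genes (0% called in each class at an adjusted p under 0.05), with 556, 596, 546 and 390 at an unadjusted p under 0.05. DESeq2 called 76, 98, 111 and 15. With the pair of animals that shared chips as a block, edgeR called 4 in CM-like cells and 0 in the others. The 4, chosen here after their values were seen, were the hepatocyte genes Alb, Ttr, Gc and Ces1c, all lower in shJun animals (log2 changes -5.35 to -4.80). Clusters led by liver genes, left unnamed, held 277 cells of shJun 2 and 51 of shNT 2, and the part of liver RNA in these calls was not tested. Of the 10 members 8, 5, 6 and 6 had enough UMIs to be tested, and 0 passed in each class. With 2 animals a group and common dispersions of 0.227 (CM-like) to 0.696 (Endothelial-like), a failure to pass does not show that levels were alike. Groups of 2 animals also separate by chance. The share of all tested genes whose groups did not overlap was not counted, so separations are not read as particular to the members.

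**Figure D5:**
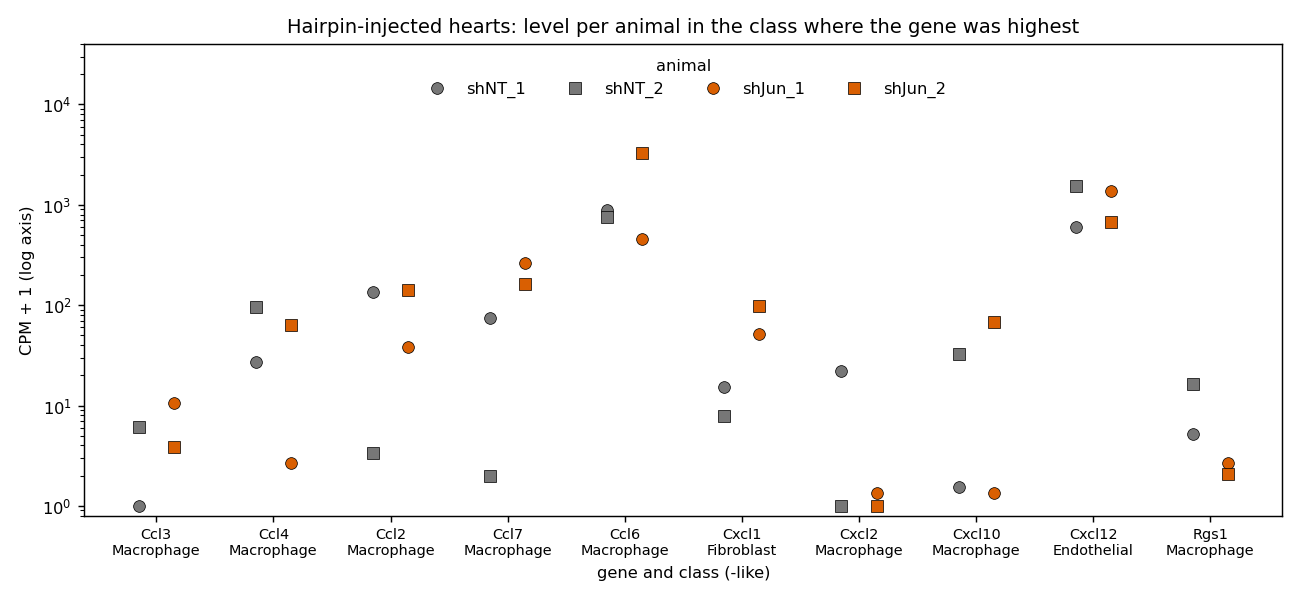
Level of each gene (CPM + 1, log axis) in each of the 2 shNT (grey) and 2 shJun (orange) animals, in the class where the gene was highest; circles are animals numbered 1 and squares those numbered 2. Cxcl1, Ccl7 and Rgs1 show no overlap between groups, and the share of all tested genes that show none was not counted. Without 1 cell each, shJun 2 falls to 5.87 (Cxcl1) and 54.9 (Ccl7) and shNT 2 to 0.138 CPM (Rgs1), which ends each separation. No gene passed the test.

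Cxcl1 in Fibroblast-like cells stood at 50.02 and 96.7 CPM in shJun and 14.1 and 6.81 in shNT animals. The groups did not overlap, and the log2 change was 2.78 ± 0.78 (SE; edgeR adjusted p = 0.9997). A single cell held 94.3% of the shJun 2 UMIs, and without it that animal stood at 5.87 and the log2 change at 1.31 ± 1.16. Cxcl12 in the same class was 438.8 and 281.6 in shJun and 190.5 and 146.3 in shNT animals, with no overlap and a log2 change of 1.02 ± 0.45 (edgeR adjusted p = 0.9997). The cell with the most UMIs held 25.1% of those of shJun 1, and without it the change was 0.81 ± 0.43.

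In Macrophage-like cells, Ccl7 was 261.0 and 161.7 CPM in shJun and 74.1 and 0.963 in shNT animals, which did not overlap (log2 change 2.51 ± 1.37, edgeR adjusted p = 0.9995). A single cell held 67.8% of the Ccl7 UMIs of shJun 2, and without it that animal stood at 54.9, below shNT 1, and the change was 2.04 ± 1.45. Rgs1 was 1.70 and 1.08 in shJun and 4.25 and 15.3 in shNT animals, again apart (log2 change -2.86 ± 1.42, edgeR adjusted p = 0.9995), and 1 cell held 110 of the 111 Rgs1 UMIs of shNT 2, which stood at 0.138 without it, below both shJun animals. Ccl6 was 451.1 and 3305 against 885.1 and 755.8, and Ccl4 1.70 and 62.9 against 26.0 and 94.9, both overlapping, with log2 changes of 1.28 ± 0.87 and -0.82 ± 1.38. The highest cell held 74.9% of the Ccl4 UMIs of shNT 2, and without it the Ccl4 change was 0.47 ± 1.38. Ccl3, Ccl2 and Cxcl10 overlapped as well, at log2 changes of 1.13 ± 1.74, 0.48 ± 1.39 and 1.12 ± 1.96. The highest cell of each gene held 96.4% of the Ccl3 UMIs of shJun 1, 64.9% of the Ccl2 UMIs of shJun 2 and all 498 Cxcl10 UMIs of shJun 2, and without that cell the changes of Ccl3 and Ccl2 turned to -0.61 ± 1.799 and -0.55 ± 1.35. Cxcl2 had too few UMIs, 1 and 80 in animals shJun 1 and shNT 1 and 0 in the others.

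Ccl2 in Fibroblast-like cells was 135.4 and 15.1 CPM in shJun and 2291 and 0.328 in shNT animals, a log2 change of -3.98 ± 2.54 (edgeR adjusted p = 0.9997). A single cell of shNT 1 held 12256 UMIs, 91.1% of that animal's, and the change was -0.53 ± 1.94 without it. Ccl7 in this class was 112.9 and 31.5 against 143.8 and 33.3, overlapping, at -0.36 ± 0.87, or 0.88 ± 0.75 without the cell that held 72.7% of the shNT 1 UMIs. Cxcl12 in Endothelial-like cells was 1383 and 675.9 against 595.1 and 1548, a log2 change of -0.37 ± 0.70.

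As groups the lists gave no called gene in either direction. In Macrophage-like cells 6 of 8 tested members had a positive log2 change (median 0.86, beside 0.03 over all genes tested). So did 5 of 13 other chemokines (median -0.41), 7 of 13 receptors (0.01), 5 of 10 RGS genes (-0.04), 3 of 12 NF-kappaB and immediate early genes (-0.33) and 3 of 10 interferon-induced genes (-0.19). Of the 6 members, Ccl3 and Ccl2 turned negative without 1 cell each (-0.61 and -0.55). For Cxcl10, 1 cell held all 498 UMIs of shJun 2, so the direction of the member list rests in part on single cells. In CM-like cells all 10 interferon-induced genes were positive (median 0.62, beside -0.01 over all genes), with 0 called. In Fibroblast-like cells 2 of 9 of them were positive, at a median of -0.72 beside -0.02, and in Endothelial-like cells 7 of 10, at 0.33 beside -0.01.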

How the data were processed

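Poly-A RNA of single cells in ICELL8 nanowells was sequenced, and the authors deposited 1 matrix of raw UMI counts per gene and well for each chip, with a report of each well. Per the study's methods and the submitters' processing notes, reads were aligned to mm10 with STAR (version 2.5.2b), assigned to genes with featureCounts (Subread 1.4.6-p1) and collapsed by UMI. How reads shared by near-identical copies (Ccl2, Ccl7 and Ccl12, or Cxcl1 and Cxcl2) were counted is not given in the sources used here. In 4 of the 6 hairpin matrices 1 or 2 members had no column, which was read as 0 UMIs.

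Wells with at least 500 genes and total UMIs within 2 SD of the mean on the log10 scale were kept. Cells were clustered without the members, by stage (10 principal components, 30 neighbours, Leiden resolution 0.8) or, for hairpin hearts, by animal (resolution 1.0). A name required 3 or more markers of a list in 20% of a cluster's cells, with their log2 fold averaging 0.2 or more. Part of these naming rules was set after clusters were seen, the study's own names may not match them, and no doublet caller was run because wells were picked by imaging. CPM are sums over the cells of a class on a chip, with at least 20 cells. The members and the gene lists were chosen with earlier results of these data known.

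For the hairpin comparison, UMI counts were summed per animal and class and tested with edgeR 4.0.16 (quasi-likelihood, TMM, genes filtered by expression, Benjamini-Hochberg over all genes, adjusted p under 0.05), after the procedure was tested on simulated data. Same-numbered shJun and shNT animals shared chips, per the well reports, so a fit with the pair as a block was also run. The deviations of same-numbered animals from their group means correlated at 0.04 (Macrophage-like), 0.11 (Fibroblast-like), -0.04 (Endothelial-like) and 0.31 (CM-like). Alternatives were DESeq2 1.42.0, no filter, at least 1000 genes per cell, each animal left out (a lone animal is then assumed to vary like the other group), cells thinned to 2000 UMIs or thinned to at most 5000, a minimum of 2 UMIs, and all wells. The alternatives without the highest cell of a member and without cluster 12 were chosen after seeing the data. Total counts per chip ran from 11161784 to 133264535 UMIs. Exact binomial (Clopper-Pearson) 95% intervals and the limit of 3 counts for a value of 0 cover counting error only. Python 3.11.15, R 4.3.3, scikit-learn 1.9.0 and leidenalg 0.10.2 were used.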

Additional observations from a re-analysis of the deposited data

Results flagged for a closer look

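Of 30 groups of chips in which the highest and lowest value were compared with their nearest neighbour (Dixon's test at 95%, which flags some groups by chance), 2 had a value that stood apart. The share of cells with a Ccl2 UMI was 16.8% on hairpin replicate 5, against 1.72% to 4.59% on the other 5 hairpin chips. On that chip a Fibroblast-like well of 274483 UMIs held 12256 Ccl2 UMIs, and whether RNA from that well raised the share was not tested. The Ccl4 level of Macrophage-like cells was 2508 CPM on P28 replicate 1, from 30 cells, against 332.4 to 570.2 on replicates 2, 4 and 6.

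Control wells, which no comparison used, held members in the P28 and hairpin sets. At P28, Neg_Ctrl wells held 4 Ccl2 and 8 Ccl6 UMIs among 7914 UMIs in 30 wells, and Pos_Ctrl wells held 6 Ccl6 UMIs among 8067 UMIs in 31 wells. On hairpin chips, Neg_Ctrl wells held 4 Cxcl12 UMIs among 40364, and Pos_Ctrl wells 7 among 40675. The control wells of P4, P7 and P14 held 0 member UMIs, at 813 to 1534 UMIs per set of 10 wells.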

How the results depend on the processing

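The count of genes that differed between shJun and shNT, 0 in each class with edgeR, rose to 76 (Macrophage-like), 98 (Fibroblast-like), 111 (Endothelial-like) and 15 (CM-like) with DESeq2, and to 66, 132, 55 and 419 without the filter on low counts. With the replicate block for the pairing of animals that shared chips it was 4 in CM-like cells and 0 in the other classes, and no member's call changed under the block. With 1 animal left out in turn, 0 to 17 genes passed in Macrophage-like cells (17 without shNT 1, 9 without shNT 2), 0 to 275 in CM-like cells (275 without shNT 1, 150 without shNT 2), and 0 in Fibroblast-like and Endothelial-like cells. The cause was not tested.

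Leaving out 1 animal turned the direction of 7 member log2 changes. In Macrophage-like cells Ccl4 ran from -5.28 to 0.47, Ccl2 from -0.94 to 5.26, Ccl6 from -0.98 to 2.12 and Cxcl10 from -5.63 to 6.08. In Fibroblast-like cells Ccl2 ran from -6.19 to 7.60 and Ccl7 from -1.46 to 0.94, and in Endothelial-like cells Cxcl12 ran from -1.04 to 0.76. Without the cell with the most UMIs of the gene, a setting chosen after seeing the data, the changes of Ccl3 (-0.61), Ccl4 (0.47) and Ccl2 (-0.55) in Macrophage-like cells and of Ccl7 (0.88) in Fibroblast-like cells turned too. Ccl2 in Fibroblast-like cells passed the edgeR test without the filter (-3.99), and Ccl7 in Macrophage-like cells without shNT 1 (7.69). Of 40 mean shares of cells with a UMI, 28 moved by more than 1 SD when cells were thinned to 2000 UMIs and 23 when 2 UMIs were required. Of 42 mean levels, 6 moved when cells were thinned to at most 5000 UMIs, and 2 with at least 1000 genes per cell. With a chip left out, P28 levels ran from 480.6 to 1206 CPM for Ccl4 in Macrophage-like cells and from 31.9 to 98.3 for Ccl4 and 3.71 to 10.5 for Rgs1 in CM-like cells, in each case lowest without replicate 1, and at the stages with 2 chips only the other chip's value is left (16.9 or 326.9 for Rgs1 in Macrophage-like cells of P7). Few cells per class and 2 animals per hairpin limit what can be seen.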
